A study of Mus musculus with 7 samples.

Results

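The 7 genes described here code for nuclear factors that act at the end of the Wnt pathway. They are the Tcf/Lef transcription factor genes Lef1, Tcf7, Tcf7l1 and Tcf7l2, the Groucho corepressor genes Tle1 and Tle3, and Ctbp1, which codes for C-terminal binding protein, another corepressor. They were taken by symbol from a list of Wnt nuclear effectors, and are 7 of 32285 genes in the count tables. Transcripts were counted in single LSK cells, which are bone marrow cells that lack lineage markers and carry Sca-1 and cKit, sorted from mice with a full knockout of B4galt1 and from wild-type mice. The labels give the strain of both groups as 129S1/C57Bl/6 and the knockout genotype as B4-/-, and the knockout label stands on 3 libraries and the WT label on 4. B4galt1 codes for a galactosyltransferase of glycoprotein synthesis, and the title of the series names Wnt, Muc13 and the choice of a megakaryocytic fate. Labels give neither age nor sex nor whether a library held 1 mouse or a pool, so p-values measure only the spread between these libraries.

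In cells without a Wnt signal, Tcf/Lef proteins sit on DNA together with Groucho (Tle) corepressors and keep target genes low. When Wnt binds its receptors, beta-catenin escapes breakdown, enters the nucleus, takes the place of Groucho on Tcf/Lef proteins and recruits coactivators. Tcf7 (TCF-1) and Lef1 are best known in blood for their roles in T and B cell development, Tcf7l1 (TCF3) acts mainly as a repressor in embryonic stem cells, and Tcf7l2 (TCF4) is best known in the gut. Ctbp1 protein binds short motifs in many repressors and brings in histone-modifying enzymes.

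Promoter sequence is shown for Lef1, Tcf7l1, Tcf7l2 and Tle3, with the motif letters that Tcf/Lef proteins bind. Tcf7, Tle1 and Ctbp1, whose promoters held no such motif, are not shown. All 7 members had promoter entries in RefSeq (build GRCm38.p6). Lef1 had 4, Tcf7 and Tcf7l2 had 2 each and the other members 1 each. The core letters CTTTG, searched on both strands from 250 bases before to 50 bases after each annotated start, stood in promoters of Lef1, Tcf7l1 and Tcf7l2, in 53.9% of 32851 promoters and, counted by gene as the members are, in 57.4% of 27025 genes. The longer form CTTTGAA or CTTTGAT, which contains the core, was in a promoter of 0 of 7 members, in 8.65% of promoters and in 9.88% of genes. Promoters of a single chromosome, on which no member lies, were left out of these shares. The lines below are read 5′ to 3′ on the strand of the gene, and capitals mark CTTTG or its reverse complement CAAAG. The Lef1 stretch lies at chr3:131110124-131110153 on the plus strand, with the core 161 bases before the first annotated start. The Tcf7l1 stretch lies at chr6:72789056-72789085 on the minus strand, with the core 28 bases before the start. The Tcf7l2 stretch covers chr19:55741560-55741809 on the plus strand, with the core 111 bases before the start, and the Tle3 stretch covers chr9:61372116-61372365 on the plus strand and holds no core.
Lef1: gtatgactcgtcCTTTGggtgctaggaaat
Tcf7l1: gccctgtcaaaaCTTTGtcgccgcagcggc
Tcf7l2: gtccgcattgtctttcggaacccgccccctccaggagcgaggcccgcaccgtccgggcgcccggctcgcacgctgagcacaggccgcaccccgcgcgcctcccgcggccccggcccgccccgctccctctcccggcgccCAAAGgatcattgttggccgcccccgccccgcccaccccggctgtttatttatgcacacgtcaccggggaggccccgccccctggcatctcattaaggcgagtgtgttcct
Tle3: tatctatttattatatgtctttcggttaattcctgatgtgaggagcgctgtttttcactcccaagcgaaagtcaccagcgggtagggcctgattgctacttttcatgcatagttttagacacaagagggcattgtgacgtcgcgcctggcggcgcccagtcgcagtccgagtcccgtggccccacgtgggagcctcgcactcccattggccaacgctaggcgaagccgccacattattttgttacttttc

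The libraries held 14970791 to 89747946 UMIs (unique molecules counted), and 24430 barcodes passed the cell filter, 1172 to 8862 per library. Genes of the sort were present in every library, Kit at 137 to 311 CPM (UMIs per 1000000 UMIs of the cells summed) and Ly6a, which codes for Sca-1, at 16.6 to 48.2 CPM. The T cell gene Cd3e and the B cell gene Ms4a1 stayed below 0.5 CPM, with highest values of 0.493 and 0.414. B4galt1 RNA did not separate the labels. It stood at 51.2, 55.6 and 27.4 CPM in the knockout-labelled libraries and at 56.4, 69.2, 56.7 and 34.8 CPM in the WT-labelled ones (edgeR log2 fold change -0.14, SE 0.12, adjusted p 0.549), and since the deleted part is not given this 3′ count checks nothing. The barcodes fell into 2 lists of sequences. List B held knockout replicate 3 and WT replicate 4, which shared 88 barcodes, and list A the other 5 libraries, whose pairs with any library shared 0 to 7. The share of UMIs from ribosomal protein genes was 30% and 30.2% in list B but 13.7% to 20.8% in the others. CPM values of the labels are therefore compared within lists or with the list in the model. The correlations over gates given below did not account for the list.

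Cells were sorted by marker genes into gates, none of which uses a member. A gate needed UMIs of at least 3 genes of a marker list, and the stem cell gate (Procr, Fgd5, Hlf, Mecom and others) was split by mitotic genes into quiescent and cycling cells. It held 10014 cells, 7589 quiescent and 2425 cycling. Further gates held 2958 granule cells (Elane, Prtn3, Ctsg and others), 2406 monocyte cells (Csf1r, Irf8 and others), 1939 cells by Mpo, 1661 by Flt3, 1614 by Dntt and 309 cells of the T, NK and innate lymphoid gate. Gates are cuts on detected markers and not cell types. Levels of different members are not compared with each other.

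Tcf7l1 and Tcf7l2 stood high in stem-cell-gated cells and low in granule-gated cells in every library. Tcf7l1 lies on chromosome 6 (72626378 to 72789254, minus strand, mm10). In the stem cell gate it stood at 6.79, 12.7 and 3.71 CPM in the knockout-labelled libraries and at 11.6, 12.6, 12.7 and 5.88 CPM in the WT-labelled ones. In the granule gate the values were 2.92, 2.12 and 1.34 CPM and 0.72, 1.17, 0 and 1.92 CPM. Every library was lower in the granule gate, and the granule values of all 7 libraries lay below the lowest stem cell value.

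Of the 12518 genes tested in the contrasts of gates with the stem cell gate, 68.1% were called for the granule gate, 46.9% for the monocyte gate, 26.6% for Dntt, 25.3% for Mpo and 6.02% for Flt3, so a call is common and its size and direction are what is described. These contrasts share the stem cell sums. The edgeR log2 fold change of Tcf7l1 was -1.70 (SE 0.24, adjusted p 1.54e-08) in the granule gate and -1.83 (SE 0.31, adjusted p 9.21e-06) in the Mpo gate, with 7 of 7 libraries lower in each. It was -0.86 (SE 0.21, adjusted p 0.000683) in the monocyte gate, with 6 of 7 lower, and -2.17 when gates were read on cells thinned to 3000 UMIs. Against the Flt3 gate (0.0072, SE 0.26) and the Dntt gate (-0.33, SE 0.26) the difference did not pass the threshold (edgeR adjusted p 1 and 0.401). In order of mean CPM, Tcf7l1 ran from quiescent stem cells (10.4 ± 4.51, SD, n = 7) through Dntt, Flt3 and cycling stem cells (8.79 ± 6.49, 8.44 ± 6.12 and 8.11 ± 3.38) to monocyte, Mpo and granule cells (4.41 ± 1.85, 2.42 ± 1.2 and 1.45 ± 0.961). The first 4 of these overlapped in their spread, and quiescent stem cells exceeded Dntt cells in 4 of 7 libraries.

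Tcf7l2 (chromosome 19, 55741820 to 55933654, plus strand) was likewise lowest in the granule gate among the 7 gates with enough cells in every library. In the stem cell gate it stood at 94.8, 115 and 48.3 CPM in the knockout-labelled libraries and at 94.4, 129, 111 and 55.9 CPM in the WT-labelled ones. In the granule gate it stood at 24.2, 35.8 and 24 CPM and at 21.6, 38.5, 53.5 and 35 CPM. Each library was lower in the granule gate than in its own stem cell gate, and the list B libraries were the lowest of the 7 in the latter. The edgeR log2 fold change was -1.26 (SE 0.12, adjusted p 4.65e-12) for the granule gate, and -2.11 with gates read on thinned cells. It was -0.53 (SE 0.12, adjusted p 0.00132) for the Mpo gate, with 7 of 7 libraries lower. The monocyte gate gave -0.28 (SE 0.10, edgeR adjusted p 0.0242), with 6 of 7 lower. Leaving out knockout replicate 1 or 2, or WT replicate 1 or 2, ended that call (adjusted p 0.0978, 0.139, 0.0504 and 0.115), and the value was -0.80 with gates on thinned cells. Mean Tcf7l2 levels in the Flt3, quiescent and Dntt gates (103 ± 50.7, 101 ± 35.3 and 99.6 ± 34.5 CPM, SD, n = 7) lay within each other's spread. The Flt3 and Dntt gates against the stem cell gate, at 0.033 (SE 0.13) and 0.14 (SE 0.12), did not pass the threshold (edgeR adjusted p 0.973 and 0.443). Granule-gated cells were deeper, with a median of 16920 UMIs per cell against 7874 in the stem cell gate, and the part of depth in these differences was not tested beyond the thinned gates.

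**Figure D1:**
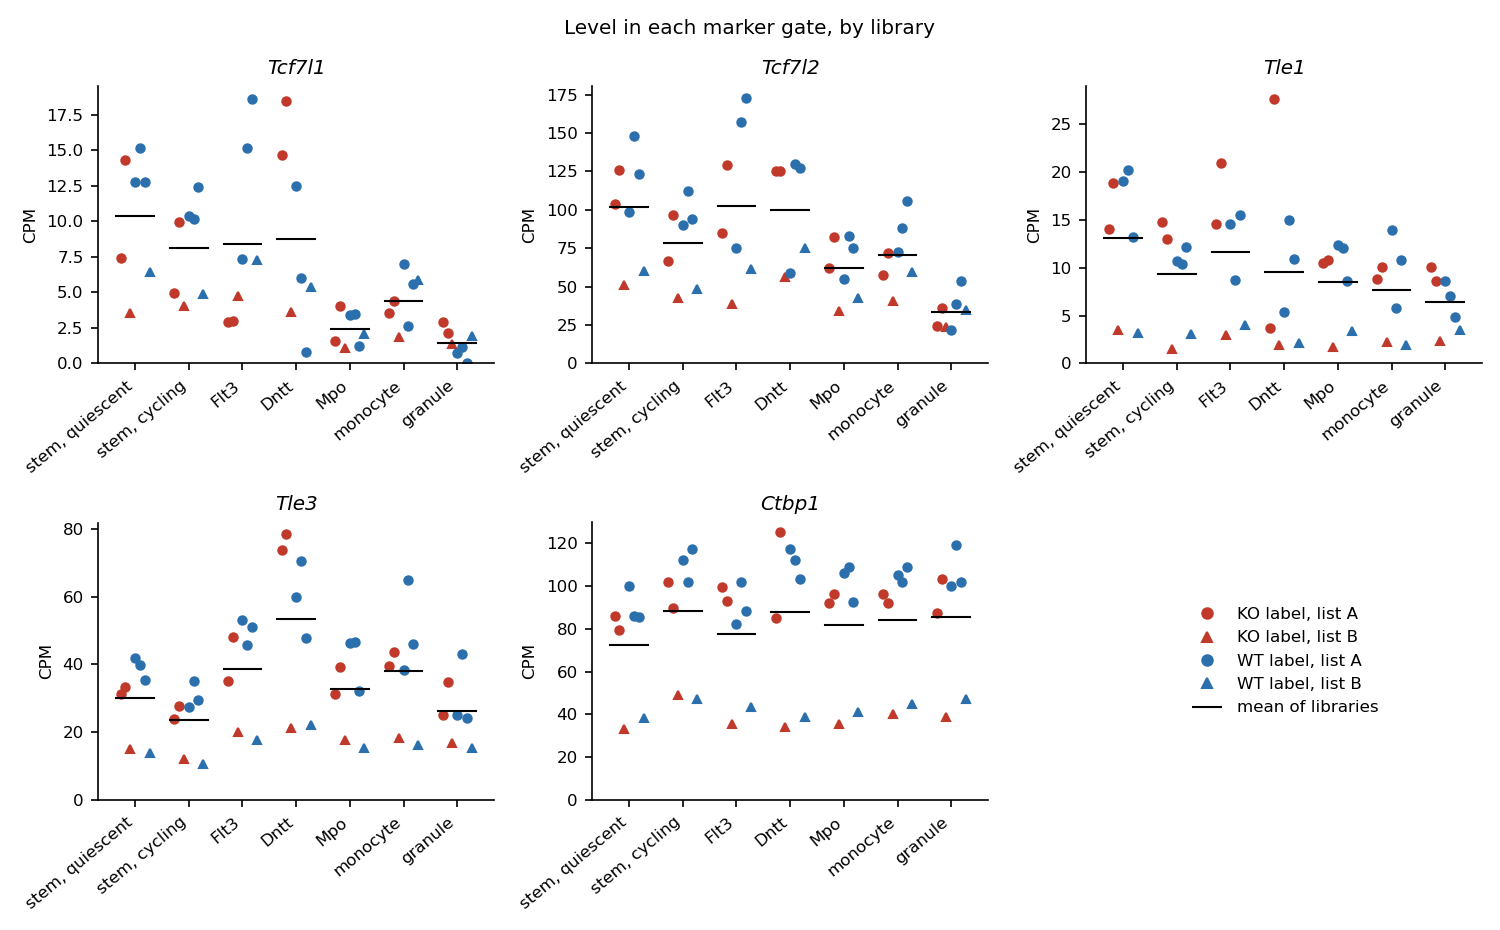
Level in CPM (vertical axis, 1 panel per gene with its own scale) of the 5 members with enough counts, in 7 marker gates (horizontal axis). Each point is 1 library, red for the knockout label and blue for WT, circles for barcode list A and triangles for list B, and the line is the mean of the 7 libraries. Tcf7l1 and Tcf7l2 are lowest in the granule gate, Tle3 is highest in the Dntt gate, and the list B triangles of Tle1, Tle3 and Ctbp1 lie below nearly every circle.

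Tle3 differed from Tcf7l1 and Tcf7l2 in direction in the Mpo and monocyte gates, where it was called higher than in the stem cell gate. It codes for a Groucho corepressor and lies on chromosome 9 (61372366 to 61418497, plus strand). In the stem cell gate it stood at 29.4, 31.1 and 14 CPM in the knockout-labelled libraries and at 35, 37.3, 32.9 and 12.8 CPM in the WT-labelled ones. In the Dntt gate, whose marker is the terminal transferase gene of early lymphoid cells, it stood at 73.7, 78.5 and 21.3 CPM and at 59.8, 70.5, 47.9 and 22.1 CPM. All 7 libraries were higher in the Dntt gate, list B from a lower start. The edgeR estimate was 0.86 on the log2 scale (SE 0.10, adjusted p 1.34e-10), and 0.92 (adjusted p 2.39e-07) in list A alone.

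Tle3 was also above the stem cell gate in the monocyte gate by 0.51 (SE 0.081, edgeR adjusted p 3.93e-07), higher in 7 of 7 libraries. In the Flt3 gate the log2 fold change was 0.50 (SE 0.11, adjusted p 0.00131), with 7 of 7 higher, but 0.31 with gates on thinned cells and adjusted p 0.0529 in list A alone. The Mpo gate gave 0.32 (SE 0.10, edgeR adjusted p 0.0129), higher in 6 of 7, a call lost in list A alone (adjusted p 0.138) and without knockout replicate 3 (0.0535). The granule gate at 0.18 (SE 0.086) did not pass (edgeR adjusted p 0.0536), and passed without any one of 4 libraries, with adjusted p 0.0279 without knockout replicate 1 and 0.00362, 0.0355 and 0.00908 without WT replicates 1, 2 and 3. Dntt-gated cells ranked first in Tle3 among the 7 gates (53.4 ± 23.9 CPM, SD, n = 7), above the Flt3 gate (38.7 ± 14.6) in 6 of 7 libraries.

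Tle1, the other Groucho gene (chromosome 4, 72117142 to 72200919, minus strand), was lower in the monocyte gate than in the stem cell gate in 7 of 7 libraries (log2 fold change -0.47, SE 0.15, edgeR adjusted p 0.00878). Its stem cell values were 14.3, 16.7 and 2.8 CPM in the knockout-labelled libraries and 15.1, 15.1, 12.8 and 3.13 CPM in the WT-labelled ones, and its monocyte values 8.82, 10.1 and 2.21 CPM and 14, 5.76, 10.8 and 1.97 CPM. The list B libraries stood far below the others in both gates. The monocyte call was lost without WT replicate 2 (adjusted p 0.0703) and with gates on thinned cells (0.138). The granule gate gave -0.38 (SE 0.15, edgeR adjusted p 0.024), -0.58 in list A alone. That call was lost in 7 of 13 alternatives, 4 of them the removal of knockout replicate 2 (0.249) or of WT replicate 1, 2 or 3 (0.0941, 0.121 and 0.0794), with the highest adjusted p, 0.254, without the 5% deepest cells. The Mpo, Dntt and Flt3 gates gave -0.33, -0.45 and 0.081 (edgeR adjusted p 0.207, 0.113 and 0.941), and with gates on thinned cells the Mpo and Dntt differences passed (-0.53 and -0.85, adjusted p 0.00792 and 0.000349). Tle1 and Tle3 had opposite signs in the monocyte contrast, each past the threshold.

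Ctbp1 (chromosome 5, 33247723 to 33274994, minus strand) differed little from the stem cell gate, by 0.25 at most on the log2 scale. Its means in the 7 gates with enough cells in every library were lowest in quiescent stem cells (72.6 ± 26 CPM, SD, n = 7). They were highest in cycling stem cells (88.3 ± 28.8 CPM). The granule gate was above the stem cell gate by 0.25 (SE 0.062, edgeR adjusted p 0.000319), higher in 5 of 7 libraries, and the monocyte gate by 0.17 (SE 0.06, adjusted p 0.0181), higher in 6 of 7. The monocyte call was lost in 4 of 13 alternatives, among them without knockout replicate 3 (adjusted p 0.052) and without the gene filter (0.146). Flt3, Mpo and Dntt gates gave -0.0065, 0.072 and 0.12 (edgeR adjusted p 1, 0.595 and 0.339). With gates on thinned cells the Mpo and Dntt differences were 0.29 and 0.32 and passed (adjusted p 0.000445 and 0.000374). In all, 14 of 25 member and gate pairs were called, 8 lower and 6 higher than in the stem cell gate. Of all genes tested, 6.02% (Flt3) to 68.1% (granule) were called in these contrasts.

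**Figure D2:**
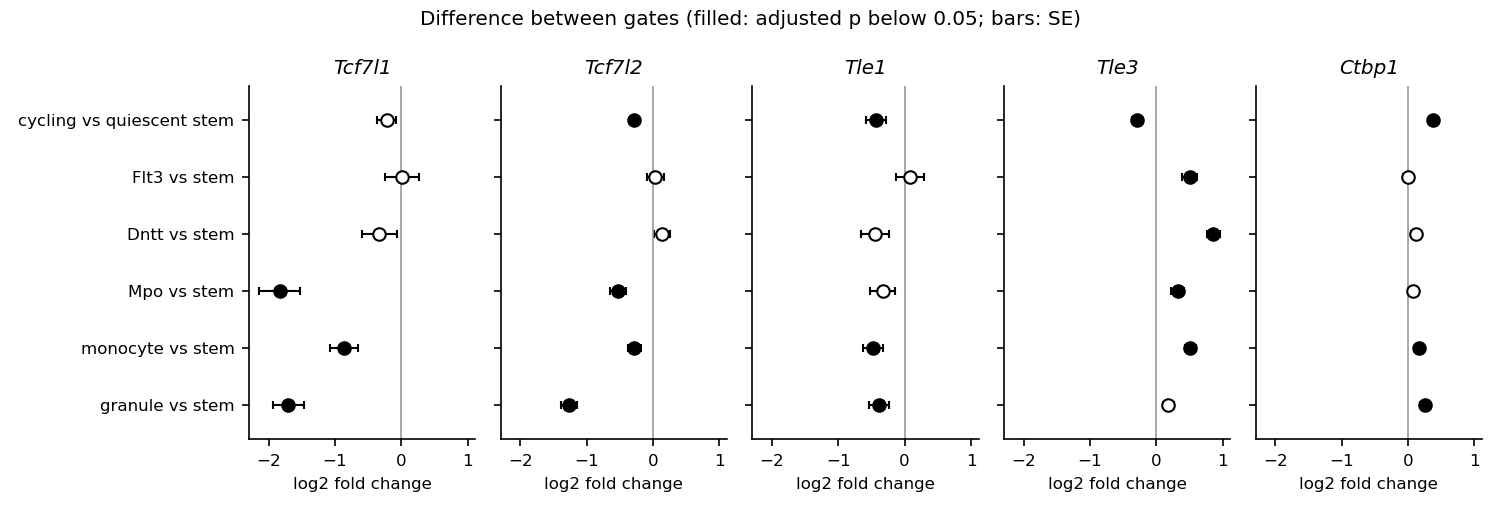
Log2 fold change (horizontal axis, the same for all panels) of 5 members between gates, with bars of 1 SE over 7 libraries. The top row is cycling against quiescent stem-cell-gated cells, the other rows a gate against the whole stem cell gate, and filled points passed an edgeR adjusted p of 0.05. Tcf7l1 and Tcf7l2 lie left of 0 in the Mpo, monocyte and granule rows and Tle3 lies right of 0 in all 5 gate rows.

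Within the stem cell gate, cycling cells had more Ctbp1 and less Tcf7l2, Tle3 and Tle1 than quiescent cells. Of 12971 genes tested in this contrast 51.7% were called, and of the 5 members tested 4 were. Ctbp1 stood at 85.9, 79.4 and 33.1 CPM in quiescent cells of the knockout-labelled libraries and at 102, 89.6 and 48.9 CPM in their cycling cells. The WT-labelled libraries gave 100, 85.8, 85.4 and 38.3 CPM and 112, 102, 117 and 47.3 CPM. Cycling cells were higher in 7 of 7 libraries (edgeR log2 fold change 0.38, SE 0.058, adjusted p 6.4e-07). Tcf7l2 at -0.29 (SE 0.056, adjusted p 2.57e-05) and Tle3 at -0.29 (SE 0.08, adjusted p 0.00264) were lower in 7 of 7 libraries. Tle1 was lower in 6 of 7 (-0.43, SE 0.15, edgeR adjusted p 0.0136), a call lost without knockout replicate 3 (0.0541), WT replicate 1 (0.0531) or WT replicate 2 (0.0785). Tcf7l1 at -0.22 (SE 0.14) did not pass (edgeR adjusted p 0.176). Cycling cells had a median of 13580 UMIs against 6999 in quiescent cells, and with gates on thinned cells the Ctbp1 call was the only one of the 4 to pass (0.34, adjusted p 0.00163). The other adjusted p values were then 0.095 for Tcf7l2, 0.1 for Tle3 and 0.343 for Tle1.

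Lef1 and Tcf7 were rare in these cells, and each was found most often in a lymphoid gate, Tcf7 in the T, NK and innate lymphoid gate and Lef1 in that gate and in B-gated cells of WT replicate 4. Lef1 (chromosome 3, 131110471 to 131224356, plus strand) had 302 UMIs in 135 of 24430 cells. Of these, 75 UMIs lay in 27 of 309 cells of the T, NK and innate lymphoid gate and 126 in 31 cells of the B gate of WT replicate 4. Those 2 gates gave 66.6% of Lef1 UMIs from 1.54% of the cells. WT replicate 4 carries that share, with 176 of the 201 UMIs. Without it the gates gave 25 of 74 UMIs, or 33.8%, and single libraries ran from 14.3% to 77.2%. The B gate held 68 cells, 54 of them in WT replicate 4, where Cd79a stood at 1010 CPM and Lef1 at 162 CPM, and 0 to 9 cells in each other library, all without a Lef1 UMI.

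Tcf7 (chromosome 11, 52252371 to 52283014, minus strand) had 518 UMIs in 243 cells. The T, NK and innate lymphoid gate gave 214 of them, from 54 cells, and the B gate 1, together 41.5% of the UMIs and 27.4% without WT replicate 4. Knockout replicate 1 held 70 of the 243 cells, and 15 of its 113 Tcf7 UMIs lay in that gate. In the 4 libraries with at least 10 cells in that gate, Tcf7 stood at 53.9 and 32.5 CPM in knockout replicates 1 and 3 and at 42 and 60.6 CPM in WT replicates 3 and 4. Lef1 stood there at 3.59 and 2.71 CPM in the former and 26.7 and 23.5 CPM in the latter. With 1 and 3 Lef1 UMIs behind the knockout values and 7 and 50 behind the others, no test was made. A Lef1 UMI was found in 8.74% of the cells of that gate (exact 95% interval 5.84% to 12.5%) and a Tcf7 UMI in 17.5% (13.4% to 22.2%), with 15 cells holding both. All 16 marker genes of the gate were detected in it, and Cd3e, the defining T cell gene, was at 0 in 3 of the 7 libraries there. Intervals here and below cover counting error only.

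In the stem cell gate 0.24% of 10014 cells held a Lef1 UMI (exact 95% interval 0.154% to 0.356%) and 0.549% a Tcf7 UMI (0.414% to 0.714%), with 0 cells holding both, which allows a share of cells with both UMIs of up to 0.03% (3 counts of the total, the limit used for each 0 here). Erythroid-gated cells, which should lack both genes, held a Lef1 UMI in 0 of 264 cells, which allows a share of up to 1.14% and a Tcf7 UMI in 0.758%, at a median of 15980 UMIs per cell against 7874. Secondary-granule neutrophil-gated cells held a Tcf7 UMI in 5.33% of 300 cells at a median of 22150 UMIs. Knockout replicate 1 held 208 of these 300 cells and 17 of their 19 Tcf7 UMIs. Cells of the MHC class II gate, at a median of 9449 UMIs, held a Tcf7 UMI in 0.227% and a Lef1 UMI in 0.341% of 880 cells. The stem cell shares were not shown to exceed these levels, and no expression is read from them. Free RNA was not measured. Thinned to 3000 UMIs per cell, the Tcf7 share was 0.215% in the stem cell gate, 0.383% in the erythroid gate, 1.06% in the neutrophil gate and 10.5% in the T, NK and innate lymphoid gate. Some of the other Tcf7 UMIs lay together in single cells. Of 97 Tcf7 UMIs in the stem cell gate 21 lay in 1 cell of WT replicate 4, and the 12 in the Dntt gate of knockout replicate 1 lay in 1 of 37 cells.

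**Figure D3:**
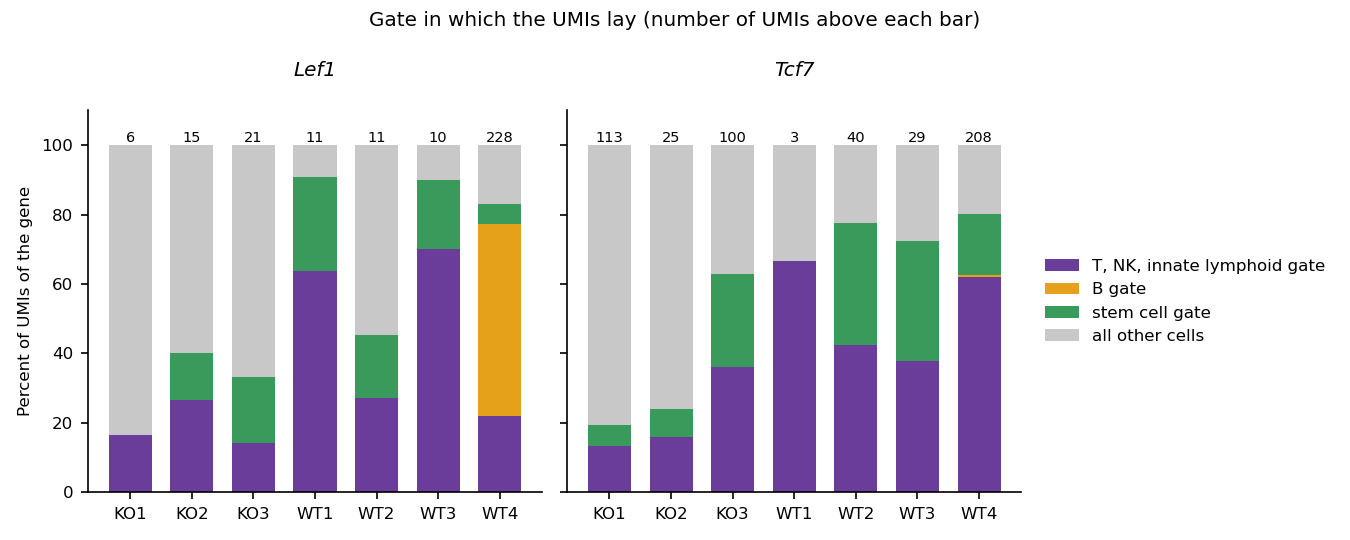
Percent of the UMIs of Lef1 (left) and Tcf7 (right) that lay in each gate (vertical axis), for each library (horizontal axis, KO for the knockout label), with the number of UMIs above each bar. The B gate segment of Lef1 is seen in WT replicate 4 alone, where it is 55.3% of 228 UMIs.

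Genes whose pattern over 13 gates was most like that of a member were found by Pearson correlation of log2(CPM + 1) among 8659 genes. Gates share libraries and depth. The level of a gate was the mean over its libraries with at least 10 cells, so the share of list B libraries differed between gates. Ctbp1 averaged 71.3 CPM in the T, NK and innate lymphoid gate (n = 4) and 85.4 CPM in the granule gate (n = 7). In list A alone these means were 98.4 and 102 CPM. The part of the lists in r was not tested. Tcf7l2 was most like Chm (r = 0.99), Map4k4 and Rhoq (0.98 each), Tle3 most like Camsap2 (0.96), Slc43a2 (0.95) and L3mbtl3 (0.94), and Tcf7l1 most like Ric1 (0.94), Cep95 and Mdm4 (0.90 each). Tle1 was most like Tatdn1 (0.93), Ptgs2 (0.92) and Dnajb6 (0.90), and Ctbp1 most like Pitpna (0.90), Ptbp3 and Mast2 (0.88 each). Lef1 went with Gimap4, Klrd1 and Gm2682 (0.93 each), and Tcf7 with Tcrg-C1 (0.89), Il18r1 (0.87) and Trbc1 (0.86), where Klrd1, Il18r1 and Trbc1 are markers of the T, NK and innate lymphoid gate. Among members, r was 0.74 for Tcf7l2 with Tle3, 0.71 for Lef1 with Tcf7, 0.57 for Tcf7l1 with Tcf7l2 and 0.28 for Tle1 with Tle3.

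Over all kept cells Tcf7l1 was lower in the libraries labelled knockout. It stood at 3.53, 5.1 and 2.44 CPM there and at 8.27, 9.07, 10 and 5.02 CPM in the libraries labelled WT. Knockout replicate 2 lay just above WT replicate 4, from the other list, and within each list every knockout-labelled library lay below every WT-labelled one. That held for 3 of 7 members (Tcf7l1, Tcf7l2 and Ctbp1) and for 17.2% of all genes tested. Tcf7l1 differed by -0.99 on the log2 scale (knockout label minus WT label, barcode list in the model, SE 0.18, edgeR adjusted p 0.0393). It was 1 of 7 members called, where 1.07% of 15149 genes were called in either direction and 0.607% of the 15149 were called lower. In list A alone it was -1.01 (SE 0.24, edgeR adjusted p 0.06), and in list B, with 1 library per label, the log2 ratio was -1.04 (exact 95% interval -1.29 to -0.80 from 195 and 448 UMIs, counting error only).

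The direction of Tcf7l1 was kept in all 16 alternatives, from -1.11 to -0.75, and the call in 7 of them. It was lost without the list in the model (adjusted p 0.74) and when knockout replicate 1 (0.115), knockout replicate 3 (0.0638) or WT replicate 1 (0.0907), 2 (0.0729), 3 (0.127) or 4 (0.0671) was left out. Granule-gated cells, in which Tcf7l1 is lowest, were 38.2%, 27.5% and 11.5% of the knockout-labelled libraries and 5.23%, 3.24%, 1.47% and 4.45% of the WT-labelled ones. All 5 primary granule markers were detected, and their summed level was 1430 to 7700 CPM under the knockout label and 362 to 1120 CPM under the WT label. Stem-cell-gated cells were 24.4%, 31.5% and 40% against 50.6%, 60.9%, 58.9% and 42.3%. Without granule- and neutrophil-gated cells the difference was -0.75 (edgeR adjusted p 0.177). Sums over all cells cannot tell fewer cells of a gate from less RNA per cell.

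Tcf7l2 stood at 37, 69.3 and 37.9 CPM in the knockout-labelled libraries and at 73.7, 111, 108 and 53.8 CPM in the WT-labelled ones. As with Tcf7l1, the labels did not overlap within a list. The log2 fold change was -0.68 (SE 0.20) and did not pass (edgeR adjusted p 0.13, and 0.0405 by DESeq2). Without granule- and neutrophil-gated cells it was -0.34 (edgeR adjusted p 0.629).

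Lef1 stood at 0.128, 0.869 and 0.263 CPM in the knockout-labelled libraries and at 0.851, 0.867, 0.578 and 2.55 CPM in the WT-labelled ones. Knockout replicate 2 was as high as the list A libraries labelled WT, and WT replicate 4 stood above all others. The label difference was -1.72 on the log2 scale (SE 0.68, edgeR adjusted p 0.222). It was -2.86 (adjusted p 0.0262) without knockout replicate 2, -0.75 without knockout replicate 3 and -0.72 without WT replicate 4, and -0.64 without the lymphoid gates. B-gated cells were 0.609% of WT replicate 4 and at most 0.131% of any other library, and the summed level of the 9 B markers, all detected, was 26.9 to 42.2 CPM under the knockout label and 32.2 to 122 CPM under the WT label.

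Tcf7 stood at 2.41, 1.45 and 1.25 CPM in the knockout-labelled libraries and at 0.232, 3.15, 1.68 and 2.33 CPM in the WT-labelled ones, fully overlapping (log2 fold change -0.02, SE 0.57, edgeR adjusted p 0.99). Tle1, Tle3 and Ctbp1 gave -0.073, -0.15 and -0.056 (SE 0.14, 0.14 and 0.12, edgeR adjusted p 0.82, 0.575 and 0.83). For these 3 the list was the larger divide. Ctbp1 stood at 98.2 ± 6.33 CPM (SD, n = 5) in list A and at 39.3 and 44.1 CPM in list B, Tle1 at 11.9 ± 0.989 against 2.51 and 2.89, and Tle3 at 36.9 ± 7.02 against 15.7 and 15.4. All 7 estimates lay below 0, with a median of -0.15 against 0.01 over all genes, though Tcf7 turned positive in 10 of 16 alternatives and Tle1 in 1. The label difference was not shown to differ between the lists for any member (0 of 7 called by edgeR for the interaction, 0 at an unadjusted p below 0.05, where 0.0252% of 15876 genes were called).

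**Figure D4:**
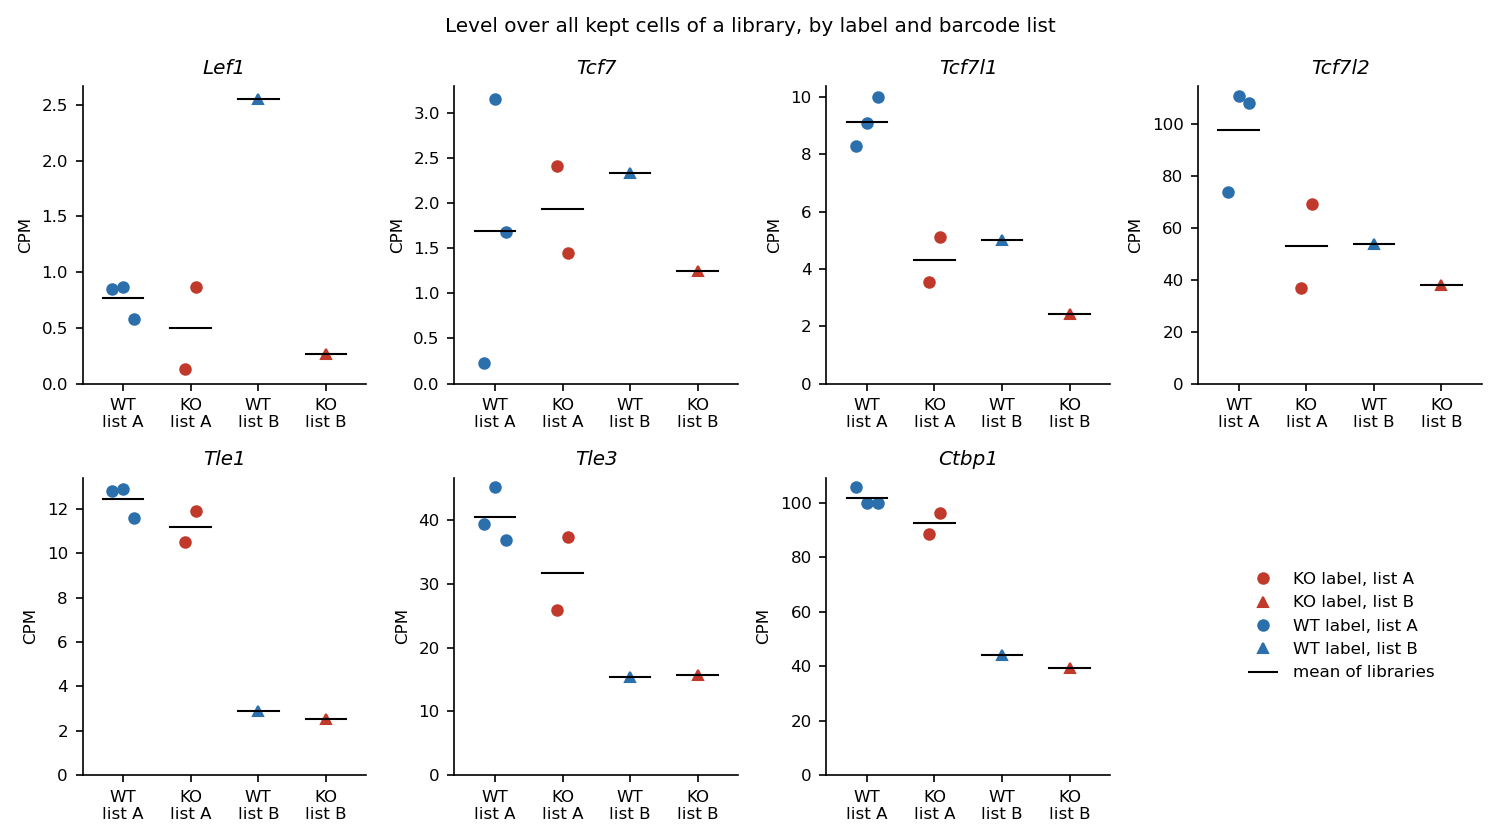
Level in CPM over all kept cells (vertical axis, 1 panel per gene with its own scale) by label and barcode list (horizontal axis). Each point is 1 library and lines are means. Tcf7l1 and Tcf7l2 are lower under the knockout label within each list, Lef1 is highest in WT replicate 4 at 2.55 CPM, and Tle1, Tle3 and Ctbp1 part by list.

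Within single gates no member passed the test between labels. Across 7 gates edgeR called 0 of 32 member and gate pairs, 2 had an unadjusted p below 0.05 and DESeq2 called 0 of 49, while the share of genes called was 0.125% in quiescent and 0.139% in cycling stem cells, 0.269% in the Flt3, 0.202% in the Mpo, 0.0316% in the granule, 0.324% in the monocyte and 0.0687% in the Dntt gate. In quiescent stem-cell-gated cells Tcf7l1 stood at 7.39, 14.3 and 3.53 CPM in the knockout-labelled libraries and at 12.8, 15.2, 12.8 and 6.45 CPM in the WT-labelled ones. Knockout replicate 2 lay inside the WT range of its list, and the difference was -0.57 on the log2 scale (SE 0.25, p 0.0367, edgeR adjusted p 0.965). Cycling stem cells gave -0.46 (SE 0.29, edgeR adjusted p 1) and monocyte-gated cells -0.79 (SE 0.41, adjusted p 0.724), while the Dntt and granule gates gave 0.27 (SE 0.63) and 0.49 (SE 0.63), both with edgeR adjusted p 1. The 5 granule markers summed to 411 to 445 CPM in stem-cell-gated cells under the knockout label and to 158 to 289 CPM under the WT label, and their part in these values was not tested. Tcf7l1 was too low for a test in the Flt3 and Mpo gates.

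Tcf7l2 was below 0 in all 7 gates with both lists in the model, while in list A alone it was 0.27 in the Dntt gate and 0.032 in the Mpo gate. The monocyte gate gave -0.45 (SE 0.14, p 0.00731, edgeR adjusted p 0.322), from 57.9, 72.1 and 40.6 CPM under the knockout label and 72.3, 87.9, 106 and 59.5 CPM under the WT label. Knockout replicate 2 nearly touched WT replicate 1, and WT replicate 4 lay inside the range of the knockout label. The other gates ran from -0.49 (Flt3, SE 0.24) to -0.047 (Dntt, SE 0.25), each with edgeR adjusted p 1. Tle1, Tle3 and Ctbp1 ranged over the gates from -0.41 to 0.24, from -0.15 to 0.17 and from -0.18 to -0.052. Lef1 and Tcf7 were below edgeR's filter on low counts in every gate. The label difference in a gate was not shown to differ from that in the stem cell gate for any of the 6 members tested (0 called by edgeR in 5 contrasts). Tcf7 passed the count filter of that fit and Lef1 did not. Unadjusted edgeR p was below 0.05 for Tcf7 in the Dntt gate (0.00325) and for Tcf7l2 in the monocyte (0.0169) and Flt3 (0.0293) gates. Of 13259 genes tested for such a difference, 0% were called for the Dntt, 0.0151% for the Flt3, 0.00754% for the Mpo, 0.121% for the granule and 0.181% for the monocyte gate.

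**Figure D5:**
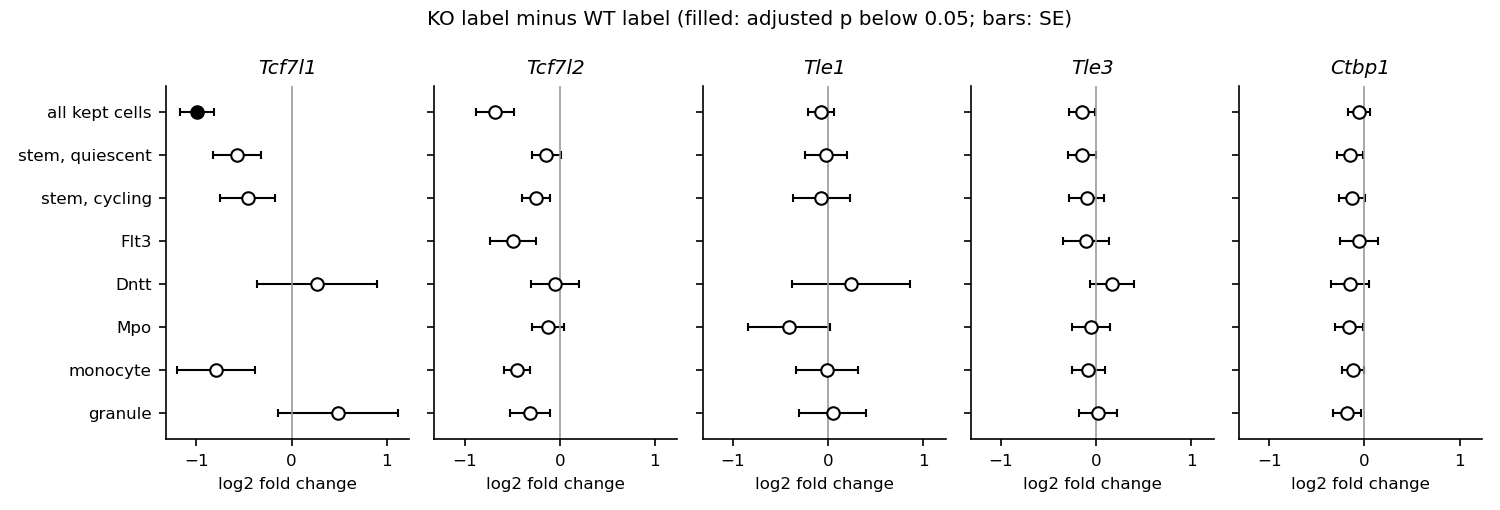
Log2 fold change, knockout label minus WT label (horizontal axis, the same for all panels), over all kept cells (top row) and in 7 gates, with bars of 1 SE over 7 libraries. Only Tcf7l1 over all kept cells passed an edgeR adjusted p of 0.05 (filled point). A missing point is a gate in which the gene was too low to be tested.

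Other genes of the pathway were read from 3 lists. Of 5 further family members (Tle2, Tle4, Tle5, Tle6 and Ctbp2) edgeR called 0 between labels over all cells, with a list median of -0.10 against 0.01 over all genes. Those with the smallest p were Tle2 (-0.56, SE 0.30, adjusted p 0.343) and Tle4 (-0.23, SE 0.16, adjusted p 0.453). Against the stem cell gate, Tle2 and Tle6 were called lower in the Mpo, granule, monocyte and Dntt gates, and Tle4 in the granule gate. Of the 5, 0 were called higher in any gate. The share of all genes called, in either direction, was 25.3% for the Mpo, 68.1% for the granule, 46.9% for the monocyte and 26.6% for the Dntt gate. The Tle proteins belong to the Groucho family, and Ctbp2 is the close relative of Ctbp1.

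Of 15 tested genes for beta-catenin, its partners and chromatin cofactors, 0 were called between labels over all cells (list median -0.05). The smallest p values were those of Bcl9l and Bcl9, which code for adaptors between beta-catenin and Pygo proteins. Bcl9l stood at 12.2, 16.3 and 13 CPM under the knockout label and at 32.6, 34, 29.5 and 15.9 CPM under the WT label (-0.81, SE 0.17, edgeR adjusted p 0.0608). Bcl9 gave -0.45 (SE 0.13, adjusted p 0.12). In both genes, picked for their small p, the knockout label lay below the WT label within each list, as in 17.2% of all genes tested.

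Of 10 tested Wnt target genes 1 was called, Ccnd1, which codes for cyclin D1 and has other inputs besides Wnt. It stood at 10.9, 21.2 and 10.4 CPM under the knockout label and at 36.7, 37.5, 31.9 and 19.8 CPM under the WT label (-1.01, SE 0.19, edgeR adjusted p 0.0401). The knockout label was lower within each list, as in 17.2% of all genes tested. Ccnd1 was also called in cycling stem-cell-gated cells (-1.40, SE 0.21, adjusted p 0.00666) and Flt3-gated cells (-1.43, SE 0.29, adjusted p 0.0235). The list median over all cells was -0.29. None of the other tested targets was called between labels in any gate. Of 8 targets tested against the stem cell gate, 4 were called higher in the Dntt gate (Apcdd1, Ccnd1, Cd44 and Myc) and 0 lower, where 26.6% of all genes were called. The granule gate had 3 higher and 3 lower (68.1% of all genes called), the monocyte gate 5 higher and 1 lower (46.9%), the Mpo gate 2 higher (25.3%) and the Flt3 gate 1 higher (6.02%).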

How the data were processed

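Each library came as UMI counts of 32285 genes in each barcode, as the authors deposited them. Cell Ranger 7.0.0, Seurat 4.4.0 and build mm10 are named in the submitters' processing notes, and the kit (Single Cell 3′ v2) in the labels' protocols, which the 2 barcode lists leave in doubt. Filters by the authors are not given in the sources used here. Barcodes were kept with at least 1000 UMIs, 500 genes and at most 10% mitochondrial UMIs. No doublet caller was run. Cells positive for more than 1 of 7 committed marker lists were set apart, and an alternative left out the 5% deepest cells. Gates were read in a fixed order, committed lists first. The Il7r or Rag and Dntt gates needed 2 UMIs, Mpo 3 and Flt3 1.

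Counts were summed per library and gate, for gates with at least 20 cells in every library. They were tested with edgeR 4.0.16 (R 4.3.3, TMM, filterByExpr, robust quasi-likelihood F test, two-sided, Benjamini-Hochberg over all genes tested, threshold 0.05), with the barcode list as covariate between labels and a library block between gates. SE is the log2 fold change over the root of F. Levels are plain CPM, not the TMM-scaled CPM first intended, so that they match the UMIs. Alternatives were DESeq2 1.42.0, other filters, list A alone, thinned gates, a replicate block and each library left out. The edgeR steps were checked on simulated counts. Named further genes are those called between labels, or the 2 with the smallest p in a list. Members and lists were chosen with earlier results of these data known. Between any 2 libraries of the same label, counts differed by more than sampling noise.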

Additional observations from a re-analysis of the deposited data

Results flagged for a closer look

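Among the 4 libraries labelled WT, 1 library stood apart from the other 3 in 11 of the member levels, by a test for a single outlying value that chance meets in about 1 in 20 groups. The levels share cells and libraries and the number examined is not given, so 11 is not set against that rate. WT replicate 4 is the 1 WT-labelled library in barcode list B, and it is the library that stood apart in 10 of the 11. Lef1 over all kept cells was 2.55 CPM there against 0.578 to 0.867 in the others. Tle1 over all kept cells was 2.89 CPM against 11.6 to 12.9. Ctbp1 was 44.1 CPM over all kept cells against 99.9 to 106, and 44.6 CPM in the monocyte gate against 102 to 109. Low counts lie behind the rest, in which WT replicate 4 held a few UMIs and the other 3 libraries 0. These are Lef1 at 0.182 CPM in the Flt3 gate, 0.295 in the Mpo gate, 0.16 in the granule gate and 0.246 in the monocyte gate, and Tcf7 at 0.364 CPM in the Flt3 gate and 1.51 in the Dntt gate. Any value above 0 meets the test when the other 3 are 0, so nothing is read from these flags. Lef1 in cycling stem-cell-gated cells was 0.716 CPM in WT replicate 1 against 0.254 to 0.325 in the others. Knockout replicate 3, the other list B library, stood at 2.51 CPM for Tle1 and 39.3 CPM for Ctbp1 over all kept cells, near WT replicate 4, but at 0.263 CPM for Lef1.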

How the results depend on the processing

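Of 651 comparisons of a result with an alternative, 547 kept direction and side of the threshold. Between labels over all kept cells 1 member was called. The count was 0 without the list covariate, 0 in list A alone, 0 without granule- and neutrophil-gated cells, 2 by DESeq2, 2 with the replicate block, and 0 to 2 with 1 library left out. Genes called there were 162, against 0 without the list covariate (697 at an unadjusted p below 0.05), 362 in list A alone, 547 without the gene filter, 872 by DESeq2, 2699 with the block and 16 to 363 with 1 library left out. The block used replicate numbers that did not pair the samples. The correlations of same-numbered libraries were 0.59, 0.80 and -0.43, and knockout replicate 3 went best with WT replicate 4 (0.90). With the block Tcf7l2 was called (-0.72, edgeR adjusted p 2.04e-05). Within gates the count of 0 became 1 without the gene filter (Tcf7 in the Dntt gate). Between gates 14 calls became 11 to 16. In the cycling contrast 4 calls became 1 with gates on thinned cells.

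Values that changed sign were none of them called. Tcf7 between labels was 0.36 in list A alone, 0.66 with the replicate block, 0.02 by DESeq2, 0.007 without the gene filter, 0.041 without granule- and neutrophil-gated cells, 0.50 without lymphoid gates and from -0.50 to 0.37 with 1 library left out (0.088, 0.37, 0.34 and 0.37 without knockout replicates 2 and 3 and WT replicates 2 and 4). Tle1 was 0.0076 without granule- and neutrophil-gated cells. In the Flt3 gate Tcf7l1 was -0.0096 by DESeq2, -0.052 without the gene filter, -0.37 with gates on thinned cells, -0.19 in list A alone and -0.064, -0.066 and -0.044 without knockout replicate 3, WT replicate 3 and WT replicate 4 (highest 0.12). Tcf7l2 there was -0.038 without the gene filter, -0.016 with the stricter cell filter, -0.16 with thinned gates and -0.08 to 0.12 with 1 library left out (lowest without WT replicate 3). Tle1 there was -0.091 with the stricter filter and -0.063 with thinned gates. Ctbp1 there was 0.029 by DESeq2, 0.008 with the stricter filter, 0.019 without the 5% deepest cells, 0.16 with thinned gates and 0.032, 0.039 and 0.016 without knockout replicate 3, WT replicate 1 and WT replicate 3 (lowest -0.026). The cause of these changes was not tested. Depth limits Lef1 and Tcf7 most, which had 302 and 518 UMIs in all.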
